A study of Mus musculus with 9 samples.

Results

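The 9 genes described here belong to the EGF receptor and hepatocyte growth factor (HGF) systems, which carry growth signals in regenerating liver, and they were measured in rat liver RNA. They were chosen by name: the ligands Areg, Hbegf and Tgfa, the receptors Egfr and Erbb3, the ligand Hgf with its receptor Met, and the protease Plau with its receptor Plaur. All 9 have a row in the table of 37203 gene entries, and 8 of them held enough counts to be among the 14581 genes tested. The exception was Areg.

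The 9 libraries, 3 for each group, came from livers of Wistar rats that the labels describe as male. Normal rats were given olive oil. Fibrosis rats were given carbon tetrachloride (CCl4), a solvent that injures hepatocytes, as a 50% mixture in olive oil at 2 mL/kg, 3 times a week over 8 weeks. Schisandrin B rats had the same 8 weeks of CCl4, and after the first 4 weeks they were also dosed daily with schisandrin B, a lignan of Schisandra fruit. The study used 25 and 50 mg/kg of schisandrin B. Neither the dose of these libraries nor whether each library is a separate animal is stated, so errors and p-values measure the spread between libraries. There was no group with schisandrin B alone.

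Ligands of the EGF receptor are made as membrane-bound precursors and are cut free at the cell surface, after which they bind EGFR and its partners of the ErbB family. ErbB3 has a very weak kinase of its own, binds neuregulins, and signals through the receptor it pairs with. HGF is made in liver mainly by stellate and endothelial cells, is stored as an inactive single chain, is activated by cleavage, and then acts on MET, a receptor of hepatocytes and other epithelial cells. Urokinase, the product of Plau, turns plasminogen into plasmin when held by its receptor, the product of Plaur. Both systems are known for driving hepatocytes back into the cell cycle after liver loss.

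Library totals ran from 10320299 to 16255167 counts, and levels are TMM-scaled CPM, the counts of a gene as a rate per library total, where TMM is a method that corrects library totals for a few very abundant genes. Fibrosis replicate 1 stood apart: its median gene differed by 0.49 on the log2 scale from each of the other fibrosis libraries, where the remaining pairs within a group differed by 0.22 to 0.30. It was the highest fibrosis library for 8 of the 9 genes, Erbb3 being the exception, and for 40.8% of all genes tested. Values without it are given where a call, a direction or a size changed. The Y-linked transcripts Kdm5d and Eif2s3y had 0 counts in the 3 normal libraries and 73 to 193 counts in every CCl4 library, with or without schisandrin B. Ddx3y, another Y-linked gene, had 12 to 32 counts per normal, 12 to 26 per fibrosis and 6 to 16 per schisandrin B library and was not called. The split in Kdm5d and Eif2s3y follows the normal group, so a difference of sex cannot be told apart from CCl4 in comparisons with normal. Its part was not tested. In this bulk RNA, fewer cells of a type and less RNA per cell cannot be told apart.

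In fibrosis the ligands Hbegf and Tgfa and the receptors Egfr and Plaur had more RNA than in normal liver, and the receptors Erbb3 and Met had less. Against normal, edgeR called 4 of the 8 tested genes higher (Hbegf, Tgfa, Egfr and Plaur) and 2 lower (Erbb3 and Met) at a Benjamini-Hochberg adjusted p under 0.05, while Hgf and Plau were not called. That stands beside a background of 48.3% of all genes called in this comparison, 25.4% higher and 22.9% lower. With schisandrin B, 4 of 8 were lower than in fibrosis (Hbegf, Tgfa, Egfr and Plaur) and Erbb3 was higher, beside a background of 47.3% of all genes called, 24.8% lower and 22.5% higher. Against normal, edgeR called 1 of 8 lower with schisandrin B, Erbb3, and 0 higher, beside a background of 10.5% of all genes called, 5.25% in each direction. At an unadjusted p under 0.05 these counts were 2 and 0, and DESeq2 and limma voom also called 1 and 0. Levels of the 2 groups compared did not overlap in 5, 5 and 3 of the 8 genes in the 3 comparisons, beside 55.8%, 56.8% and 38.7% of all genes tested. The median absolute change of the 8 genes on the log2 scale was 1.47, 1.22 and 0.55 in these 3 comparisons, and that of all genes tested was 0.74, 0.72 and 0.37. Both of the first comparisons share the fibrosis libraries, so their opposite signs are not independent of each other.

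**Figure D1:**
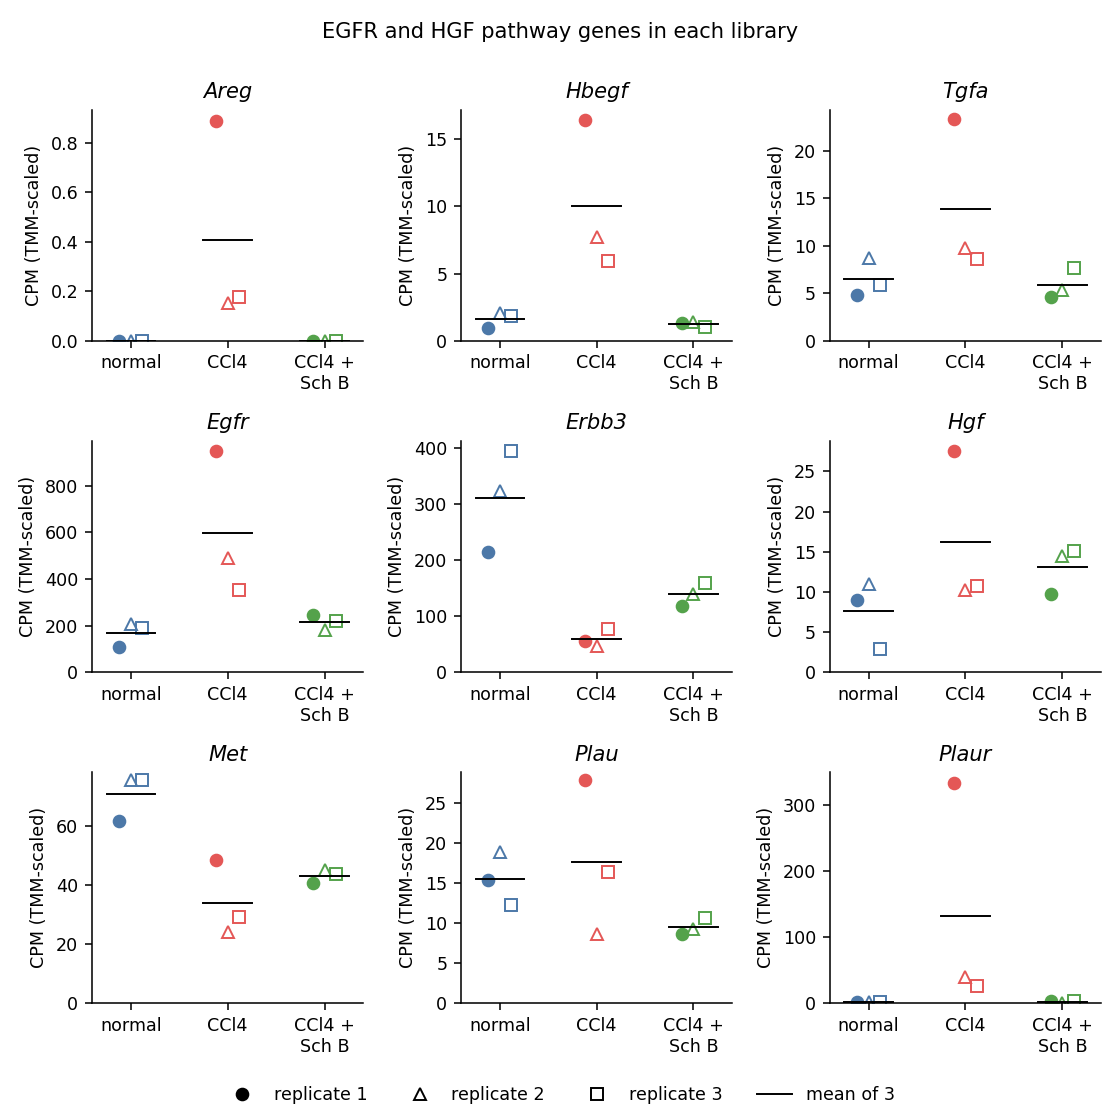
TMM-scaled CPM on the vertical axis (each panel with its own linear scale from 0) for the 9 genes in the normal, fibrosis (CCl4) and schisandrin B (CCl4 + Sch B) groups. Symbols are single libraries and lines are means of 3; fibrosis replicate 1 is the highest fibrosis library in every panel but Erbb3, and it reaches 332 CPM for Plaur.

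Of the 3 EGFR ligands among the 9 genes, Hbegf was the one called in both comparisons with fibrosis in all 17 alternatives run for it. Heparin-binding EGF-like growth factor, its product, is a ligand of EGFR that is induced early after injury. Its level was 0.943, 2.10 and 1.86 CPM in the normal libraries, 16.4, 7.71 and 5.92 CPM in the fibrosis libraries, and 1.34, 1.38 and 1.00 CPM in the schisandrin B libraries. Every fibrosis library was above every other library, and normal and schisandrin B libraries overlapped. Hbegf rose 6.03-fold in fibrosis (2.59 ± 0.43 on the log2 scale, SE; edgeR adjusted p 0.000512) and was 7.96-fold lower with schisandrin B than in fibrosis (-2.99 ± 0.45; edgeR adjusted p 0.000282). Without fibrosis replicate 1 it was called in both comparisons, with 4.12-fold and 5.45-fold differences. Between schisandrin B and normal it differed by -0.40 ± 0.47 without a call (edgeR adjusted p 0.644). These levels rest on few reads, 11 to 31 counts per normal library and 101 to 203 per fibrosis library.

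Tgfa encodes transforming growth factor alpha, an EGFR ligand that hepatocytes themselves can make. Its level was 4.80, 8.66 and 5.90 CPM in normal, 23.4, 9.75 and 8.56 CPM in fibrosis, and 4.58, 5.39 and 7.66 CPM in schisandrin B libraries. Fibrosis replicate 1 was the one library far from the rest, and fibrosis replicate 3 lay just below normal replicate 2. The gene rose by 1.09 ± 0.39 on the log2 scale in fibrosis (edgeR adjusted p 0.0375) and fell by 1.24 ± 0.40 between fibrosis and schisandrin B (edgeR adjusted p 0.0236). Without fibrosis replicate 1 neither call held: the change against normal was 0.50 ± 0.29 (edgeR adjusted p 0.184), and that of schisandrin B against fibrosis was -0.64 ± 0.30 (edgeR adjusted p 0.0941). Over 18 alternatives the first call was lost in 8 and the second in 3.

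Areg encodes amphiregulin, another EGFR ligand, linked to wound repair and fibrosis in several tissues. It had 11, 2 and 3 counts in the fibrosis libraries, and 0 counts in all normal and all schisandrin B libraries. The limit that a count of 0 allows, 3 counts, is 0.203 to 0.257 CPM in the normal libraries and 0.218 to 0.286 CPM in the schisandrin B libraries. With those groups set to 3 counts per library, the fibrosis mean of 0.405 CPM was at least 1.73-fold higher than normal and at least 1.56-fold higher than schisandrin B. Only fibrosis replicate 1 was above 3 counts, and without it the fibrosis mean was 0.164 CPM, under the 3-count limit of both other groups, so that no bound remains. Areg missed the filter on low counts, and in a fit without that filter edgeR called it in both comparisons, with adjusted p of 0.0195 and 0.0237. Without fibrosis replicate 1 neither call held in that fit (edgeR adjusted p 0.120 and 0.137).

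The other EGF family ligands split. Of 8 listed, 4 were tested (Egf, Btc, Nrg1 and Nrg4), while Ereg, Epgn, Nrg2 and Nrg3 held too few counts. Nrg1, a neuregulin that binds ErbB3, rose from 2.83 ± 0.56 to 63.6 ± 29.7 CPM (SD, n = 3) in fibrosis and stood at 2.19 ± 0.66 CPM with schisandrin B. Its change was 4.48 ± 0.36 on the log2 scale against normal (edgeR adjusted p 5.85e-06), and -4.85 ± 0.37 for schisandrin B against fibrosis (edgeR adjusted p 6.24e-06). Btc encodes betacellulin, a ligand of EGFR and ErbB4. It had 0 counts in normal libraries, 35, 32 and 28 in fibrosis and 5, 11 and 6 with schisandrin B. Its fibrosis mean was at least 9.80-fold above normal, and with schisandrin B it was at least 2.60-fold above normal and differed from fibrosis by -1.87 ± 0.45 on the log2 scale (edgeR adjusted p 0.00736). Egf, the founding ligand, moved the opposite way from Hbegf, with 4.80 ± 2.37 CPM in normal, 0.851 ± 0.515 in fibrosis and 3.87 ± 1.13 with schisandrin B (SD, n = 3). It fell by 2.50 ± 0.50 in fibrosis (edgeR adjusted p 0.00159) and rose by 2.20 ± 0.50 with schisandrin B (edgeR adjusted p 0.00365). Nrg4, a neuregulin for ErbB4, was 2.31 ± 0.78 higher with schisandrin B than in fibrosis (edgeR adjusted p 0.0307), a call that 6 of 17 alternatives ended, among them the fit without fibrosis replicate 1 (edgeR adjusted p 0.077).

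Release of these ligands depends on the protease ADAM17 and on the iRhom proteins, encoded by Rhbdf1 and Rhbdf2, that bring it to the cell surface. Adam17 itself was not called, with 32.9 ± 6.7, 27.8 ± 14 and 23.6 ± 1.4 CPM (SD, n = 3) in normal, fibrosis and schisandrin B libraries. Rhbdf2 read 8.49, 10.9 and 8.25 CPM in normal, 51.5, 43.8 and 32.8 in fibrosis, and 9.26, 5.82 and 6.66 with schisandrin B, so the fibrosis libraries overlapped neither other group. It rose by 2.21 ± 0.24 in fibrosis (edgeR adjusted p 2.68e-05) and fell by 2.56 ± 0.24 with schisandrin B against fibrosis (edgeR adjusted p 1.72e-05). Of 11 tested genes of ligand shedding, 4 were higher and 2 lower in fibrosis (4 and 4 without fibrosis replicate 1). With schisandrin B, 1 was higher and 3 lower than in fibrosis. The share of all genes called was 48.3% and 47.3% in these comparisons. Timp3, an inhibitor of ADAM17, was among the shedding genes higher in fibrosis (0.58 ± 0.18, edgeR adjusted p 0.0182), a call lost in 3 of 18 alternatives. It fell by 1.59 ± 0.18 with schisandrin B against fibrosis (edgeR adjusted p 5.30e-05). With schisandrin B it was also below normal, at 22.1 against 44.5 CPM (-1.01 ± 0.18, edgeR adjusted p 0.00552).

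The 2 receptors of the ErbB family moved in opposite directions. Egfr, the common receptor of these ligands and an abundant receptor of hepatocytes, read 106.1, 205.2 and 189.9 CPM in normal libraries, 950.4, 490.8 and 354.8 CPM in fibrosis and 246.9, 181.4 and 217.5 CPM with schisandrin B. All fibrosis libraries lay above all others, and normal and schisandrin B libraries overlapped. Egfr rose 3.58-fold in fibrosis (1.84 ± 0.36 on the log2 scale, edgeR adjusted p 0.00167) and was 2.78-fold lower with schisandrin B than in fibrosis (-1.48 ± 0.36, edgeR adjusted p 0.00591). It was called in all 18 alternatives of both comparisons, and without fibrosis replicate 1 the differences were 2.53-fold and 1.97-fold. Schisandrin B and normal differed by 0.37 ± 0.35 (edgeR adjusted p 0.565).

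Erbb3 read 213.5, 322.8 and 394.9 CPM in normal, 55.3, 47.5 and 76.7 CPM in fibrosis, and 117.8, 139.3 and 159.2 CPM with schisandrin B. The 3 groups did not overlap, with schisandrin B libraries between the others. It fell by 2.37 ± 0.27 on the log2 scale in fibrosis (edgeR adjusted p 3.68e-05), a 5.19-fold difference, and was 2.32-fold higher with schisandrin B than in fibrosis (1.21 ± 0.26, edgeR adjusted p 0.00259). Both calls held in all 18 alternatives. Erbb3 was the one gene of the 8 that also differed between schisandrin B and normal, where the difference was -1.16 ± 0.26 (edgeR adjusted p 0.0162). That call ended without normal replicate 3 (edgeR adjusted p 0.0722), schisandrin B replicate 1 (0.0738) or schisandrin B replicate 2 (0.0625). The other ErbB receptors were hardly counted: Erbb2 had 2 to 4 counts per normal, 7 to 16 per fibrosis and 3 to 6 per schisandrin B library, Erbb4 had at most 1, and neither was tested.

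The number of Egfr counts per Erbb3 count compares these receptors within a library and needs no scaling between libraries. It does not compare their molecules, since the lengths of the transcripts were not used, and it was looked at after the levels had been seen, so it is a description without a test. The ratio was 0.497, 0.636 and 0.481 in normal libraries, 17.2, 10.3 and 4.63 in fibrosis and 2.10, 1.30 and 1.37 with schisandrin B. The groups did not overlap, and on a linear scale schisandrin B libraries were nearer to normal than to fibrosis. On a log scale schisandrin B replicate 1 (2.10) was nearer to the lowest fibrosis library (4.63) than to the highest normal one (0.636). Fibrosis libraries ranged widely, with replicate 1 highest.

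**Figure D2:**
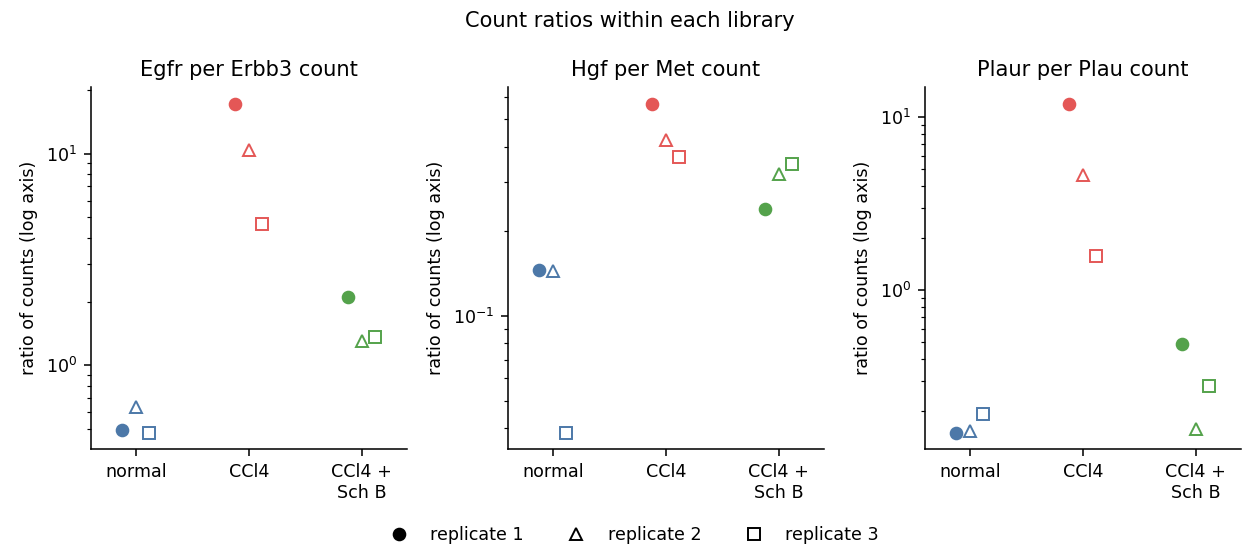
Ratio of the counts of a gene pair within each library (vertical axis, log scale) for Egfr per Erbb3, Hgf per Met and Plaur per Plau in the 3 groups; each symbol is 1 library. The Egfr per Erbb3 ratio lies between 0.481 and 0.636 in normal, 4.63 and 17.2 in fibrosis and 1.30 and 2.10 in schisandrin B libraries.

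In the HGF system the receptor changed and the ligand was not called. Hgf read 9.01, 10.96 and 2.91 CPM in normal, 27.6, 10.2 and 10.7 CPM in fibrosis, and 9.73, 14.4 and 15.1 CPM with schisandrin B. Fibrosis replicate 1 and normal replicate 3 were far from the other libraries of their groups, and all groups overlapped. The difference was 1.07 ± 0.50 on the log2 scale for fibrosis against normal (edgeR adjusted p 0.1) and -0.30 ± 0.49 for schisandrin B against fibrosis (edgeR adjusted p 0.646). Without fibrosis replicate 1 they were 0.45 ± 0.44 and, with the sign turned, 0.32 ± 0.44. With library totals alone as the scaling, fibrosis against normal was called (1.44 ± 0.47, edgeR adjusted p 0.0252).

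Met read 61.8, 75.5 and 75.6 CPM in normal, 48.5, 24.1 and 29.3 CPM in fibrosis and 40.7, 45.0 and 43.8 CPM with schisandrin B. Normal libraries were above all others, and fibrosis and schisandrin B libraries overlapped through fibrosis replicate 1. Met fell by 1.07 ± 0.24 on the log2 scale in fibrosis (edgeR adjusted p 0.00307), or by 0.66 with library totals (edgeR adjusted p 0.0219). Schisandrin B against fibrosis gave 0.35 ± 0.23 without a call (edgeR adjusted p 0.248), and 0.69 ± 0.16 with a call when fibrosis replicate 1 was left out (edgeR adjusted p 0.00487). Schisandrin B against normal gave -0.72 ± 0.23 (edgeR adjusted p 0.073) although these groups did not overlap, and the gene was called there in 3 of 18 alternatives. The ratio of Hgf to Met counts was 0.146, 0.145 and 0.0385 in normal, 0.568, 0.423 and 0.367 in fibrosis, and 0.239, 0.320 and 0.346 with schisandrin B.

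Genes that activate HGF, many of them secreted or displayed by hepatocytes, were more often lower than higher in fibrosis. Of 19 tested genes for activation of HGF, plasminogen and the related ligand Mst1, 10 were lower and 5 higher in fibrosis (8 and 5 with library totals, 9 and 3 without fibrosis replicate 1). Of all genes tested, 22.9% were lower and 25.4% higher there. Library totals gave 1918 of all genes lower and 5650 higher, against 3333 and 3708 with TMM factors. Against fibrosis, 10 were higher and 5 lower with schisandrin B (6 and 5 with library totals, 8 and 4 without fibrosis replicate 1). The background there was 22.5% of all genes higher and 24.8% lower. With library totals it was 2269 genes higher and 4696 lower, against 3284 and 3611 with TMM factors. Hgfac, the secreted activator of HGF, read 464 ± 83.5 CPM in normal, 185 ± 13.2 in fibrosis and 271 ± 21.2 with schisandrin B (SD, n = 3). It fell by 1.33 ± 0.19 in fibrosis (edgeR adjusted p 0.000204). With schisandrin B it was 0.55 ± 0.19 above fibrosis (edgeR adjusted p 0.0323), a call lost in 7 of 18 alternatives, and it differed from normal by -0.78 ± 0.19 (edgeR adjusted p 0.0251), lost in 6 of 18.

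Hpn, which encodes hepsin, a membrane protease that cleaves HGF, fell from 548 ± 34 to 132 ± 46 CPM in fibrosis (edgeR adjusted p 8.01e-05) and was 501 ± 18 CPM with schisandrin B (SD, n = 3; edgeR adjusted p 0.000136 against fibrosis). Spint2, an inhibitor of such proteases, also fell, from 156 ± 4.78 to 66.9 ± 5.73 CPM, and was 160.02 ± 2.01 CPM with schisandrin B (SD, n = 3; edgeR adjusted p 7.70e-05 and 7.24e-05). St14, the gene for matriptase, and the inhibitor Spint1 were not called in any of the 3 comparisons. In the other direction, Cd44, a surface co-receptor of MET, read 4.41 ± 1.83 CPM in normal, 64.4 ± 5.18 in fibrosis and 2.68 ± 1.40 with schisandrin B (SD, n = 3). It rose by 3.87 ± 0.35 in fibrosis and fell by 4.61 ± 0.37 with schisandrin B against fibrosis (edgeR adjusted p 1.13e-05 and 8.57e-06). Mst1r, the sister receptor of MET, went from 1 count over all normal libraries to 410 over all fibrosis libraries. The ratio of the rates was 373 (exact 95% interval for counting error 66.6 to 14771), or 268 without fibrosis replicate 1. Mst1r fell by 4.12 ± 0.49 with schisandrin B against fibrosis (edgeR adjusted p 6.31e-05), or by 3.60 without that library. With 20 counts over all schisandrin B libraries it was still called higher than normal (edgeR adjusted p 0.0214). That call was lost in 5 of 16 alternatives.

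Of the urokinase pair, the receptor changed far more than the protease. Plaur read 2.32, 2.91 and 2.34 CPM in normal, 332, 39.8 and 25.9 CPM in fibrosis and 4.20, 1.46 and 3.01 CPM with schisandrin B. All fibrosis libraries were above all others, and fibrosis replicate 1 was 10.1 times the mean of the other fibrosis libraries. Plaur rose 52.1-fold in fibrosis (5.70 ± 1.05 on the log2 scale, edgeR adjusted p 0.00212), and 12.9-fold without fibrosis replicate 1 (3.69 ± 0.34, edgeR adjusted p 7.60e-06). It was 46.4-fold lower with schisandrin B than in fibrosis (-5.54 ± 1.05, edgeR adjusted p 0.00249), and 11.6-fold lower without that library (-3.54 ± 0.34, edgeR adjusted p 1.19e-05). With all 9 libraries, only 0.898% of all genes tested had a larger absolute change in fibrosis, and 0.473% in schisandrin B against fibrosis. These ranks were not computed without fibrosis replicate 1.

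Plau read 15.4, 18.9 and 12.2 CPM in normal, 27.8, 8.62 and 16.4 CPM in fibrosis, and 8.59, 9.25 and 10.7 CPM with schisandrin B. Fibrosis libraries spanned the range of the normal ones, while schisandrin B libraries were all below the normal ones. Fibrosis against normal gave 0.18 ± 0.34 on the log2 scale (edgeR adjusted p 0.688), which became -0.30 ± 0.27 without fibrosis replicate 1. Schisandrin B against fibrosis gave -0.89 ± 0.35 without a call (edgeR adjusted p 0.058). It was called with library totals (-1.14, edgeR adjusted p 0.0169), without fibrosis replicate 2 (-1.22, edgeR adjusted p 0.00429) and by DESeq2 (-0.87, DESeq2 adjusted p 0.0452). Schisandrin B against normal gave -0.71 ± 0.35 (edgeR adjusted p 0.231), called only in the fit of those 2 groups alone (edgeR adjusted p 0.0309). The ratio of Plaur to Plau counts was 0.151, 0.154 and 0.192 in normal, 11.9, 4.62 and 1.58 in fibrosis, and 0.489, 0.157 and 0.282 with schisandrin B. It was above 1 in every fibrosis library and in no other.

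Other genes of the plasminogen system went both ways. Plg, the gene for plasminogen, fell by 1.55 ± 0.21 in fibrosis (edgeR adjusted p 0.000132) and was 1.41 ± 0.21 higher with schisandrin B than in fibrosis (edgeR adjusted p 0.000265). Plat, the gene for tissue plasminogen activator, rose by 1.96 ± 0.68 in fibrosis (edgeR adjusted p 0.0387). That call ended without fibrosis replicate 1, where the change was 0.66 (edgeR adjusted p 0.169), and it was lost in 10 of 18 alternatives. Against fibrosis, the change of Plat with schisandrin B was -2.31 ± 0.70 (edgeR adjusted p 0.0221). Without fibrosis replicate 1 it was -1.01 (edgeR adjusted p 0.0476), and the call was lost in 5 of 18 alternatives, with an adjusted p of up to 0.112.

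**Figure D3:**
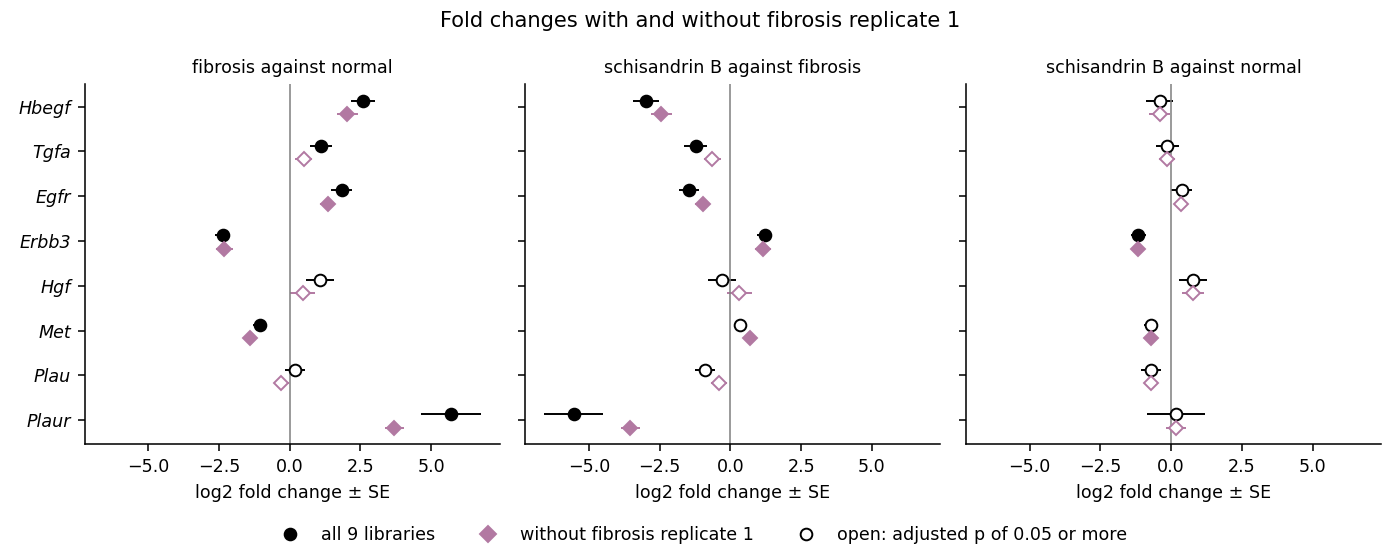
Log2 fold change with its SE (horizontal axis) of the 8 tested genes in the 3 comparisons, from all 9 libraries (circles) and without fibrosis replicate 1 (diamonds); filled symbols have an edgeR adjusted p under 0.05. Without that library Plaur moves from 5.70 to 3.69 in fibrosis against normal, the Tgfa calls end, and Met becomes called in both comparisons with schisandrin B.

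Inside the cell, both receptor systems act through shared adaptors, the RAS and MAP kinase cascade and PI3 kinase. Of 28 such genes, 13 were higher and 6 lower in fibrosis, beside 25.4% of all genes higher and 22.9% lower. With library totals these counts were 18 and 1. That scaling called 5650 of all genes higher and 1918 lower, against 3708 and 3333 with TMM factors. With schisandrin B, 11 were lower and 3 higher than in fibrosis (18 and 2 with library totals), beside 24.8% of all genes lower and 22.5% higher. Library totals gave 4696 of all genes lower and 2269 higher there, against 3611 and 3284 with TMM factors. The adaptor Shc1 read 113, 114 and 132 CPM in normal, 313, 330 and 294 in fibrosis and 100.2, 104 and 106 with schisandrin B. It rose by 1.38 ± 0.16 in fibrosis and fell by 1.59 ± 0.16 with schisandrin B against fibrosis (edgeR adjusted p 4.83e-05 and 2.62e-05). Map2k1, which encodes the kinase MEK1, rose by 1.37 ± 0.19 in fibrosis and fell by 1.60 ± 0.19 with schisandrin B against fibrosis (edgeR adjusted p 0.000127 and 5.65e-05). The docking protein Gab2 rose by 2.02 ± 0.26 and fell by 2.17 ± 0.26 in the same comparisons (edgeR adjusted p 8.37e-05 and 6.61e-05). Plcg1, a phospholipase recruited by EGFR and MET, went the other way, from 68.3 ± 4.8 CPM in normal to 35.0 ± 1.1 in fibrosis and 68.8 ± 3.1 with schisandrin B (SD, n = 3; edgeR adjusted p 0.000243 and 0.00025).

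Among feedback inhibitors 7 of 23 were higher and 2 lower in fibrosis (13 and 1 with library totals), beside 48.3% of all genes called. Library totals gave 5650 of all genes higher and 1918 lower there, against 3708 and 3333 with TMM factors. With schisandrin B, 6 were lower and 2 higher than in fibrosis, beside 47.3% of all genes. Dusp5, a nuclear phosphatase of the MAP kinase ERK, read 8.23, 9.60 and 16.2 CPM in normal, 483, 130 and 110 in fibrosis and 20.8, 27.2 and 11.3 with schisandrin B. It rose by 4.41 ± 0.65 in fibrosis and fell by 3.60 ± 0.62 with schisandrin B against fibrosis (edgeR adjusted p 0.000449 and 0.00121). Without fibrosis replicate 1 it was called in both, at 3.41 and -2.60. Lrig3, of a family of ErbB regulators, fell by 1.41 ± 0.23 in fibrosis (edgeR adjusted p 0.000458). Errfi1, the direct inhibitor of the EGFR kinase, was abundant and not called, at 1111 ± 204 CPM in normal, 1353 ± 403 in fibrosis and 1112 ± 153 with schisandrin B (SD, n = 3). Spry2, Spry4 and Dusp6, which ERK signalling is known to induce, were not called in any comparison.

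Of 18 tested growth-induced factors, 5 were higher and 1 lower in fibrosis (5 and 3 without fibrosis replicate 1), beside 48.3% of all genes called. With schisandrin B, 6 were lower and 1 higher than in fibrosis (5 and 1 without fibrosis replicate 1), beside 47.3% of all genes. Myc, a transcription factor of cell growth, read 10.04, 26.4 and 10.7 CPM in normal, 247, 330 and 206 in fibrosis and 33.1, 14.3 and 8.84 with schisandrin B. It rose by 4.05 ± 0.55 in fibrosis and fell by 3.80 ± 0.54 with schisandrin B against fibrosis (edgeR adjusted p 0.000241 and 0.000362). Phlda1, which growth factors are known to induce, rose by 5.30 ± 0.78 and fell by 4.87 ± 0.77 (edgeR adjusted p 0.000501 and 0.000771), and without fibrosis replicate 1 the changes were 4.00 and -3.58. Fosl1, an AP-1 subunit induced by ERK, went from 2 counts over all normal libraries to 3594 over all fibrosis libraries, a ratio of rates of 1635 (exact 95% interval for counting error 452 to 13507), or 1065 without fibrosis replicate 1. It had 0 counts with schisandrin B, at least 345-fold lower than in fibrosis, or at least 216-fold without that library. Ets2, a transcription factor, rose by 2.02 ± 0.26 in fibrosis and fell by 2.51 ± 0.27 with schisandrin B against fibrosis (edgeR adjusted p 9.68e-05 and 3.31e-05). Egr1, an immediate early gene, was not called, with 156 ± 79, 114 ± 74 and 92.9 ± 33 CPM (SD, n = 3) in normal, fibrosis and schisandrin B libraries. Ccnd1, the cyclin of the entry into the cell cycle, fell by 1.94 ± 0.44 in fibrosis (edgeR adjusted p 0.00479). With schisandrin B it was 1.34 ± 0.44 above fibrosis (edgeR adjusted p 0.0285), a call that ended without fibrosis replicate 1 (edgeR adjusted p 0.128).

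Of 19 tested cell cycle genes, 3 were higher and 6 lower in fibrosis, a share near the 48.3% of all genes called. These counts were 3 and 3 with library totals, and 2 and 5 without fibrosis replicate 1. Library totals gave 5650 of all genes higher and 1918 lower, against 3708 and 3333 with TMM factors. With schisandrin B, 2 were higher and 2 lower than in fibrosis (1 and 2 with library totals, 3 and 2 without fibrosis replicate 1), beside 47.3% of all genes. Against normal, 0 were higher and 4 lower with schisandrin B, beside 10.5% of all genes. Without fibrosis replicate 1 these counts were 2 and 6. There 1386 of all genes were higher and 1428 lower, against 766 and 765 with all libraries. Mcm7, a helicase subunit of DNA replication, rose by 1.77 ± 0.22 in fibrosis (edgeR adjusted p 6.39e-05). The mitotic genes Top2a and Cdk1 fell by 1.98 ± 0.44 and 2.10 ± 0.54 there (edgeR adjusted p 0.00342 and 0.00732). Both were also lower with schisandrin B than in normal (-2.98 ± 0.50 and -2.76 ± 0.59, edgeR adjusted p 0.00358 and 0.0129), and the Cdk1 call was lost in 3 of 17 alternatives. These 2 genes had 7 to 12 counts per fibrosis library and 2 to 5 per schisandrin B library. Mki67, the proliferation marker, read 3.94 ± 2.31 CPM in normal, 1.03 ± 0.463 in fibrosis and 1.04 ± 0.238 with schisandrin B (SD, n = 3), and fell by 1.90 ± 0.53 in fibrosis (edgeR adjusted p 0.0119), a call that ended without normal replicate 1 (edgeR adjusted p 0.0537).

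**Figure D4:**
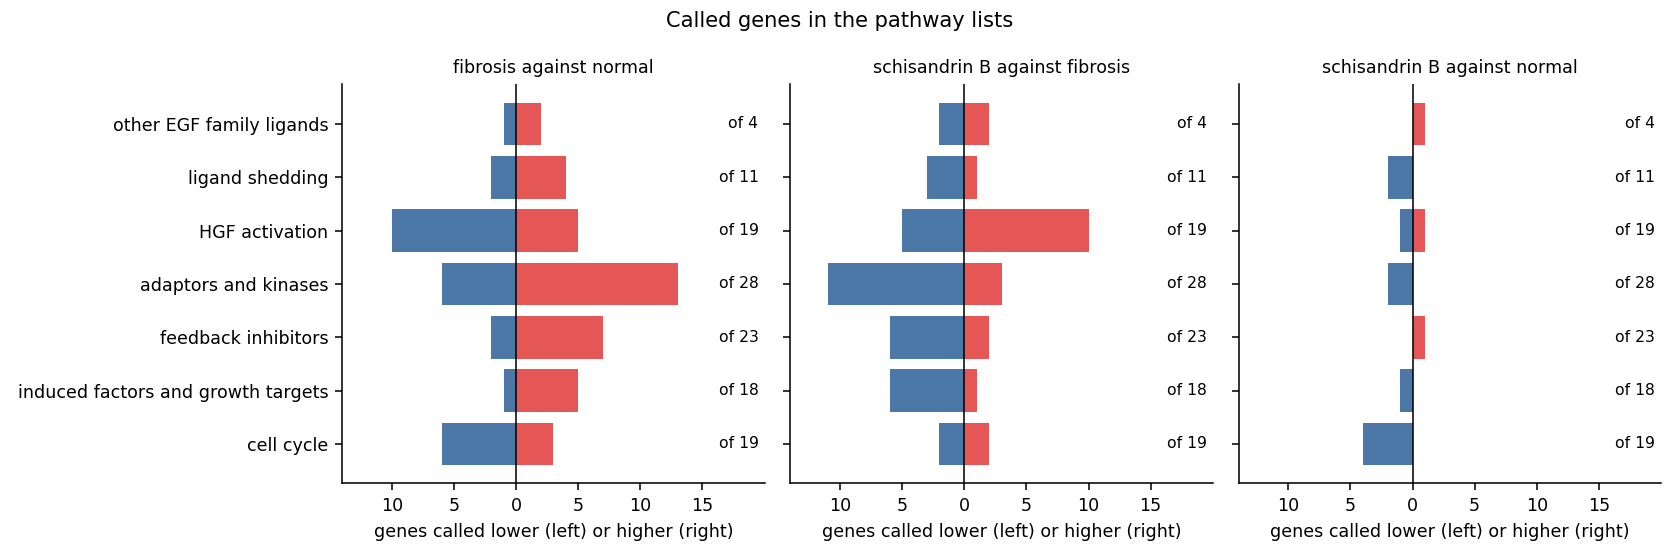
Number of genes called lower (bars to the left) and higher (bars to the right) by edgeR in each pathway list, for the 3 comparisons; the number tested stands at the right of each bar. In fibrosis against normal 13 of 28 adaptors and kinases are higher, beside 25.4% of all genes, and 10 of 19 genes of HGF activation are lower, beside 22.9%.

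Other genes with a similar course were taken by the smallest root mean square difference of the centred log2 levels over the 9 libraries, among 8796 candidates. The nearest were Gse1 and Stk40 for Hbegf (0.23 and 0.25 on the log2 scale), Hivep2 and Ccdc117 for Tgfa (0.22 and 0.25), and Slc25a29 and Arid5b for Egfr (0.22 and 0.24). Stard4 and Acsf2 were nearest to Erbb3 (0.23 and 0.26), Exoc5 and Ranbp2 to Hgf (0.29 and 0.29), Prex1 and Cmtm3 to Met (0.16 and 0.17) and Tlr2 and Secisbp2l to Plau (0.16 and 0.21). Plaur had the widest course, with a spread of 2.42, and its nearest genes, the deubiquitinase Otud1 and the chaperone partner Bag3, differed from it by 0.50 and 0.61. Bag3 read 36.6 ± 9.1 CPM in normal, 1059 ± 1021 in fibrosis and 22.8 ± 7.1 with schisandrin B (SD, n = 3).

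Markers of some cell types differed between the groups, and their part in the results was not tested. The counts of markers called in fibrosis below stand beside 25.4% of all genes higher and 22.9% lower. The libraries had the marks of liver: the 12 hepatocyte markers summed to 248695 to 280088 CPM in normal, 79175 to 126015 in fibrosis and 211681 to 233981 with schisandrin B, with 6 of 12 lower in fibrosis. Of 7 tested biliary markers 3 were higher in fibrosis, and the list of 10 summed to 37.1 to 47.2, 77.5 to 83.4 and 30.4 to 52.7 CPM in the same order of groups, with Cdh6 at 0 in normal. Stellate cell and fibroblast markers, which include cells that make HGF, summed to 573 to 744, 526 to 695 and 764 to 918 CPM, with 4 of 14 higher and 2 lower in fibrosis. Endothelial markers summed to 588 to 738, 380 to 520 and 535 to 566 CPM, with 5 of 10 lower in fibrosis. Macrophage markers summed to 1773 to 2736, 1049 to 2192 and 1058 to 1635 CPM with 1 of 11 lower in fibrosis, and neutrophil and monocyte markers to 18.4 to 20.9, 25.4 to 46.2 and 7.48 to 11.2 CPM with 2 of 6 tested higher. T and NK cell markers summed to 111 to 155, 55.8 to 101 and 71.9 to 104 CPM, with 7 of 8 tested lower in fibrosis.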

How the data were processed

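The values deposited by the authors are raw counts, whole numbers per gene without normalization, of 9 libraries sequenced on the Ion Proton per the labels' protocols. Not given in the sources used here: aligner, counter, annotation and strand setting. Per the submitters' processing notes the build is the mouse's GRCm38, while the strain is a rat and the symbols are rat symbols, so no coordinates or sequences are given. Rows are genes, so isoforms were not told apart.

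Counts were analysed with R 4.3.3 and edgeR 4.0.16: filterByExpr, TMM factors, a robust quasi-likelihood fit to all 9 libraries with a mean per group, an F test per pair of groups, and Benjamini-Hochberg adjustment over 14581 genes. Genes with an adjusted p under 0.05 are called, and rose and fell mean called. Groups follow the source names, and replicate numbers the order of accession. A floor of 3 counts was 0.176 to 0.286 CPM per library. Bounds and intervals cover counting error only.

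The genes and lists were chosen with earlier results of these data known. Named genes are all 9 members, up to 4 called entries of each pathway list with the lowest adjusted p, 20 fixed pathway genes and the 2 nearest profiles per member with a mean of at least 5 CPM. Some genes of these lists are not reported here by name. Cell type examples and gene pairs were chosen after their values were seen. Alternatives were 3 other scalings, 2 other filters, DESeq2 1.42.0, limma 3.58.1 voom, fits to only 2 groups, omission of the 20 most counted genes and omission of each library. An adjusted p under 0.01 was a further alternative for counts of called genes only. It is not among the alternatives given for single genes. Bounds and count ratios, and the unfiltered fit for Areg, without fibrosis replicate 1 were added after seeing the data. Figures used Python 3.11.15 and matplotlib 3.10.9.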

Additional observations from a re-analysis of the deposited data

How the results depend on the processing

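Of 24 results (8 genes in 3 comparisons), 12 kept their direction and their side of the threshold in every alternative run for them, and over 429 alternatives 400 did so, 14 lost a call, 9 gained one and 6 changed sign. No called result changed sign. The sign changed without fibrosis replicate 1 for Plau in fibrosis against normal (-0.30) and for Hgf in schisandrin B against fibrosis (0.32). In schisandrin B against normal it changed for Tgfa with library totals (0.0048), without normal replicate 2 (0.13) and without schisandrin B replicate 1 (0.013), and for Plaur without schisandrin B replicate 1 (-0.20). With each library left out in turn, these 4 ran from -0.30 to 0.51 for Plau, from -0.54 to 0.32 for Hgf, from -0.38 to 0.13 for Tgfa and from -0.20 to 0.50 for Plaur. Hbegf has no value with a mean of at least 5 CPM, which removes it. The number of these genes called in schisandrin B against normal was 1, and 3 when only those 2 groups were fitted, 0 at an adjusted p under 0.01 and 0 to 2 when a library was left out. The number of all genes called there was 1531, and 2951, 547 and 702 to 2814 under the same settings; the lowest was without schisandrin B replicate 3 and the highest without fibrosis replicate 1. Library totals shifted the median gene by 0.43, -0.27 and 0.16 on the log2 scale in the 3 comparisons and the share called higher from 52.7% to 74.7%, from 47.6% to 32.6% and from 50.0% to 70.3%; upper-quartile factors shifted it by -0.11 and 0.13 in the first and second. Of 456 counts of called pathway genes under alternatives, 69 differed by over 1.5 times from the reported one. The 456 include the list of other ErbB receptors, which had 0 genes tested in the reported fit, and 0 against 0 was scored as unchanged. Of 86 calls of named pathway genes, each a gene in 1 comparison, 57 held in all alternatives run. No paired analysis was possible because the labels give no replicate numbers or shared animals. Depth kept Areg, Erbb2 and Erbb4 out of the tests.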
